A study of Mus musculus with 4 samples.

Results

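The miR-181 family of the mouse is encoded by 6 precursor genes at 3 loci, with Mir181a-1 and Mir181b-1 on chromosome 1, Mir181a-2 and Mir181b-2 on chromosome 2, and Mir181c and Mir181d on chromosome 8. The 6 genes were taken by gene ID from a table of 2976 non-coding and other genes, of which 643 are miRNA genes, and all 6 had a row. The table holds small RNA levels of flow-sorted stroma from around the wolffian duct, the tube that gives off the ureteric bud, in CD1 mouse embryos at E10.5. All 4 libraries form 1 group with the genotype Tbx18-Cre;CAG-tdTomato, described as wild type. In these embryos the Tbx18 promoter drives Cre, which switches on a red reporter that descendants keep, so sorted cells are the Tbx18 lineage and need not still express Tbx18. There is no second condition, and the comparisons are between genes, copies and loci within each library. Whether each library is its own embryo, or a pool, is not in the labels. A spread or p-value here describes variation among the 4 libraries and may be technical.

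A miRNA gene is transcribed into a hairpin that Drosha and Dicer cut to short arms, named 5p and 3p, and an arm loaded into an Argonaute protein lowers targets chosen mainly by its seed, bases 2 to 8. The miR-181 family is known for tuning T cell receptor sensitivity and lymphocyte development, and its members are also found in brain and vascular endothelium. Genes of a locus lie close together and can be cut from 1 primary transcript, and paralogous loci carry copies with the same mature sequence.

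The mature arms are shown because they define which reads can be told apart, and they come from RefSeq on GRCm38.p6, which held mature entries for all 6 genes. Capitals mark the seed, and letters are 5′ to 3′.
miR-181a-5p, from Mir181a-1 and Mir181a-2: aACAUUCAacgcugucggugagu
miR-181c-5p, from Mir181c: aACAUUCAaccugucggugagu
miR-181b-5p, from Mir181b-1 and Mir181b-2: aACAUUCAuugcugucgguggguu
miR-181d-5p, from Mir181d: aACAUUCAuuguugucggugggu
miR-181a-1-3p, from Mir181a-1: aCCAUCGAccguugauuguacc
miR-181a-2-3p, from Mir181a-2: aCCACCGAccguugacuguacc
miR-181b-1-3p, from Mir181b-1: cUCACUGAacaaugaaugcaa
miR-181b-2-3p, from Mir181b-2: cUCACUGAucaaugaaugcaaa
The 6 genes gave 4 distinct 5p sequences and 6 distinct 3p sequences. All 5p arms shared the seed ACAUUCA, and of 1738 mature entries in the RefSeq table no other gene's arm carried it. Counted from the 5′ end, miR-181b-5p differs from miR-181a-5p by A9U, C10U and A21G and by 1 extra base at its end. Sequence miR-181d-5p differs from miR-181b-5p by C12U alone over the shared length, and miR-181c-5p is miR-181a-5p without its base at position 11. The family thus holds an a-like pair (a and c) and a b-like pair (b and d), and each locus carries 1 gene of each kind with the a-like gene first in the direction of transcription.

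The hairpins of the copies are shown because reads inside the capitals, the longest stretch common to both copies, fit both loci equally.
Mir181a-1, 87 nt: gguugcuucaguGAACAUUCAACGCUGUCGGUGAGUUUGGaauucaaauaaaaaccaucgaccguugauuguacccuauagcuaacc
Mir181a-2, 76 nt: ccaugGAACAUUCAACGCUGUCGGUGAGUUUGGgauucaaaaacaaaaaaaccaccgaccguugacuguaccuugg
Mir181b-1, 80 nt: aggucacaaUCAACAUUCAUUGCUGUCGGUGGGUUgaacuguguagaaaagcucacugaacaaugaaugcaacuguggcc
Mir181b-2, 89 nt: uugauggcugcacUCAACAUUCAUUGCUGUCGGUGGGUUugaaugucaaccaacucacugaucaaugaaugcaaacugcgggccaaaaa
The miR-181a copies share 28 nt, longer than their 5p arm of 23 nt, and the miR-181b copies share 26 nt, longer than their 5p arm of 24 nt. The 3p arms do differ, by U5C and U16C between miR-181a-1-3p and miR-181a-2-3p, and by A9U between miR-181b-1-3p and miR-181b-2-3p over their shared length. The rows are precursor genes and not arms, and how the authors' counting handled reads with several matches is not stated in the labels. Every split between copies below is therefore a split of listed values and its relation to the locus of origin was not tested. The same holds for the gene levels, their order, the splits within a locus, and the sums over genes given below.

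The chromosome 1 genes lie on the plus strand of GRCm38, with Mir181a-1 (gene ID 735252) at chr1:137966455-137966541 and Mir181b-1 (gene ID 723890) at chr1:137966639-137966718, 97 nt apart. In GENCODE both lie in an intron of Gm4258, and all 80 nt of Mir181b-1 but only 11 nt of Mir181a-1 fall in an exon of the lincRNA A430106G13Rik, both on the same strand. Opposite them runs an intron of the lincRNA Gm26936. The chromosome 2 genes, Mir181a-2 (gene ID 387176) at chr2:38852735-38852810 and Mir181b-2 (gene ID 723903) at chr2:38853830-38853918, also lie on the plus strand and are 1019 nt apart. They run antisense to an intron of Nr6a1, a nuclear receptor of early embryos and germ cells, and Mir181b-2 also lies opposite an exon of the unconfirmed transcript Gm44144. The chromosome 8 genes, Mir181c (gene ID 723819) at chr8:84178873-84178961 and Mir181d (gene ID 100049549) at chr8:84178716-84178787, lie on the minus strand, 85 nt apart, in an intron of a transcript of Nanos3, a germ cell RNA-binding protein. No row of the table matched to RefSeq overlapped any of the 6 hairpins, and the long RNAs around them were not analysed here.

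The TPM values could be turned back into reads, and miRNA genes held 883201, 1087240, 978210 and 146255 of them in libraries 1 to 4. TPM divides the reads of a gene by its length and scales them to a fixed total per library, so a short hairpin reads higher than a long one with equal reads. Library 4 was the shallowest, and the whole table held 2.33% of that scaling total there, against 4.94% to 7.22% in the others. Levels are therefore also given as shares of the miRNA total. Of the fixed miRNA marker lists, mesenchyme summed to 331 to 2373 TPM with 4 of 6 genes at 1 TPM or more in all libraries and Mir199a-2 and Mir214 listed at 0. Epithelium summed to 43.5 to 157 TPM with 5 of 6 genes at that level, and Mir126a, the 1 endothelial gene with a row, had 251 to 528 TPM. Blood and lymphoid cells summed to 4.51 to 21.1 TPM with none of 7 genes at that level and Mir223 and Mir486 listed at 0. The neural list summed to 37.6 to 3082 TPM with 1 of 9 genes at that level and Mir124a-1 listed at 0.

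All 6 genes were at 1 TPM or more in all 4 libraries, a level reached by 33.1% of the 643 miRNA genes. Together they summed to 842, 999, 1290 and 127 TPM in libraries 1 to 4, a mean of 815 ± 494 TPM (SD, n = 4). As a share of the miRNA total the family took 1.98%, 1.53%, 2.09% and 0.777% in libraries 1 to 4, or 1.59% ± 0.597 (SD, n = 4). Library 4 was the lowest on both scales, and libraries 1 and 3 were highest as shares. In pooled RNA of sorted cells, fewer cells with a miRNA and less of it per cell cannot be told apart.

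On chromosome 1, the a-like gene was the higher one. Mir181a-1, a source of miR-181a-5p, had 262, 217, 283 and 36.6 TPM in libraries 1 to 4, from 5830, 3886, 4720 and 343 reads, and averaged 199.7 ± 112 TPM (SD, n = 4). Mir181b-1, its partner and a source of miR-181b-5p, had 48.8, 51.1, 147 and 8.70 TPM, from 998, 841, 2258 and 75 reads, and averaged 64.0 ± 58.8 TPM (SD, n = 4). Mir181a-1 was above Mir181b-1 in every library, and the groups of values overlapped only through the shallow library 4. Mir181b-1 was the most variable of the 6 by coefficient of variation, at 92.0% against 52.3% to 68.4% for the others, and its mean was 36.2 TPM without library 3. Mir181a-1 made up 78.0% ± 8.28 of the TPM of this locus (SD, n = 4), with its lowest share, 65.8%, in library 3.

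On chromosome 2, the b-like gene was the higher one. Mir181a-2, which carries the same 5p arm as Mir181a-1, had 45.8, 53.4, 41.5 and 9.03 TPM in libraries 1 to 4, from 891, 834, 605 and 74 reads, and averaged 37.4 ± 19.6 TPM (SD, n = 4). Mir181b-2, which carries the same 5p arm as Mir181b-1, had 241, 254, 373 and 25.8 TPM, from 5487, 4642, 6372 and 248 reads, and averaged 224 ± 145 TPM (SD, n = 4). Mir181a-2 was below Mir181b-2 in every library. It made up 17.3% ± 6.55 of the TPM of this locus (SD, n = 4), from 10.01% in library 3 to 25.9% in library 4.

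On chromosome 8, nearly all of the level was Mir181d. Mir181c had 3.78, 7.38, 10.4 and 1.46 TPM in libraries 1 to 4, from 86, 135, 177 and 14 reads, and averaged 5.75 ± 3.93 TPM (SD, n = 4). Mir181d had 241, 416, 434 and 45.7 TPM, from 4431, 6162, 5995 and 355 reads, and averaged 284 ± 181 TPM (SD, n = 4). The highest value of Mir181c lay below the lowest of Mir181d. Mir181c made up 2.18% ± 0.695 of the TPM of the locus (SD, n = 4). In library 4, the thinnest, its share of the reads was 3.79%, with a 95% Wilson interval of 2.27% to 6.27% from 369 reads, which covers counting error only. The hairpin of Mir181d, shown with its 5p arm in capitals as the highest gene of the family by mean TPM, is the shortest of the 6 at 72 nt.
Mir181d: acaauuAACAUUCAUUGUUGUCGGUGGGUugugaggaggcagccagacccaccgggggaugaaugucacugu

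**Figure D1:**
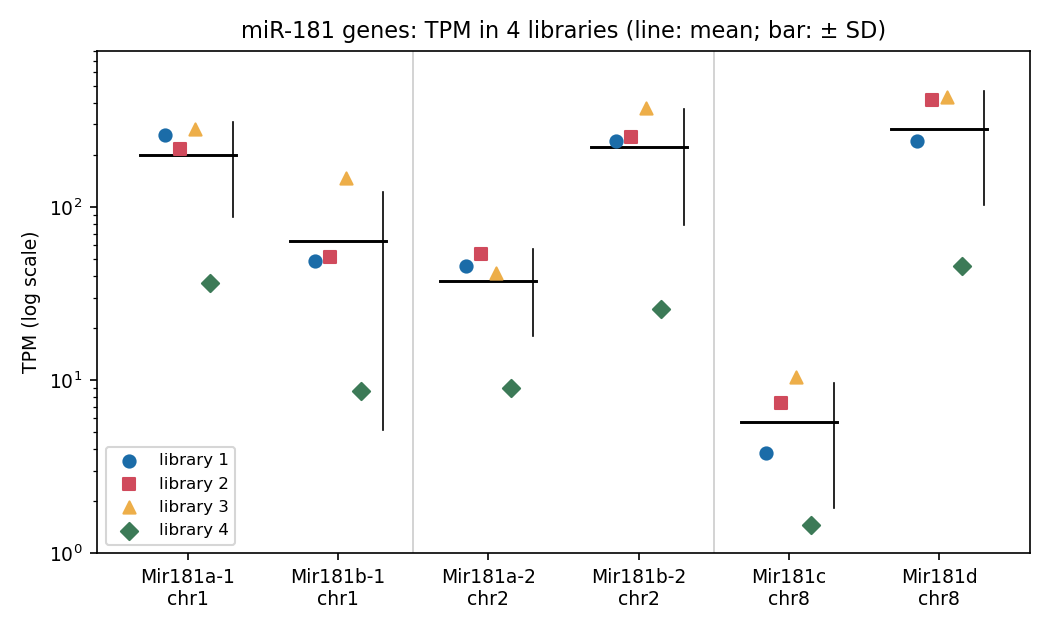
TPM of the 6 miR-181 genes on a log axis, grouped by locus, with 1 point per library, a line at the mean and a bar of ± SD (n = 4). Mir181d, Mir181b-2 and Mir181a-1 stand high, 1 per locus, Mir181b-1 and Mir181a-2 lower, and Mir181c lowest in all libraries.

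By mean TPM the order was Mir181d, Mir181b-2, Mir181a-1, Mir181b-1, Mir181a-2 and Mir181c, which were ranked 35, 43, 47, 90, 108 and 193 among the 643 miRNA genes. The genes were grouped into 3 tiers after their values were seen. These were Mir181d, Mir181b-2 and Mir181a-1, then Mir181b-1 and Mir181a-2, then Mir181c. Pairs of genes were compared within each library as log2 of TPM plus 1, and the signs of the 4 library values were flipped in every combination (an exact permutation test, two-sided). In all 23 such tests were run, and the smallest p that this exact permutation test allows with 4 libraries is 0.125, or 0.205 after Benjamini-Hochberg adjustment here. Of the 15 pairs of genes, 11 had the same sign in all 4 libraries and reached that smallest p. These were all the pairs that cross between tiers, a match that adds no support because the tiers came from the same values.

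The other 4 pairs were those within a tier. Mir181a-1 to Mir181b-2 gave -0.0043 ± 0.39 log2 units, above 0 in 2 of 4 libraries (SD, n = 4; exact permutation p = 1). Mir181a-1 to Mir181d gave -0.44 ± 0.45 and Mir181b-2 to Mir181d -0.43 ± 0.39, each below 0 in 3 of 4 libraries (SD, n = 4; exact permutation p = 0.25, adjusted 0.338). In recovered reads, not divided by length, these 2 differences shrank to -0.17 and -0.13, and Mir181b-2 was above Mir181d in libraries 1 and 3. The top 3 genes, 1 from each locus, were thus not set apart beyond the spread between libraries. Mir181b-1 to Mir181a-2 gave 0.44 ± 0.91, with 1.80 in library 3 and values between -0.06 and 0.09 in the others (SD, n = 4; exact permutation p = 0.625, adjusted 0.685). In reads Mir181b-1 was the higher of this pair in 4 of 4 libraries, but only by 841 to 834 reads in library 2 and by 75 to 74 reads in library 4.

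The differences that held in every library were large. Mir181c to Mir181d was the widest at -5.20 ± 0.66 log2 units, 36.8 times lower for Mir181c on this scale, in 4 of 4 libraries (SD, n = 4; exact permutation p = 0.125, adjusted 0.205). Its size depends on the pseudocount, at -3.88 log2 units with 10 TPM and -5.53 with TPM rescaled to the miRNA total. Mir181c also lay below the next gene up, with Mir181a-2 to Mir181c at 2.48 ± 0.64 in 4 of 4 libraries (SD, n = 4; exact permutation p = 0.125, adjusted 0.205). Between the upper tiers, Mir181a-1 to Mir181b-1 gave 1.84 ± 0.63 in 4 of 4 libraries (SD, n = 4; exact permutation p = 0.125, adjusted 0.205).

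The 2 copies of each duplicated miRNA were unequal, and in opposite directions. Mir181a-1 to Mir181a-2 gave 2.28 ± 0.40 log2 units, 4.87-fold higher on chromosome 1, in 4 of 4 libraries (SD, n = 4; exact permutation p = 0.125, adjusted 0.205). Mir181b-1 to Mir181b-2 gave -1.84 ± 0.51, 3.59-fold lower on chromosome 1, in 4 of 4 libraries, at the same exact permutation p. The Mir181a-1 copy held 85.1%, 80.3%, 87.2% and 80.2% of the summed miR-181a TPM in libraries 1 to 4, or 83.2% ± 3.52 (SD, n = 4). The Mir181b-1 copy held 16.8%, 16.8%, 28.3% and 25.2% of the summed miR-181b TPM, or 21.8% ± 5.87 (SD, n = 4). In reads these shares were 85.0% and 20.03%.

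In listed values the balance of the a gene to the b gene was therefore opposite at the paralogous loci. The log2 ratio of Mir181a-1 to Mir181b-1 was 2.40, 2.07, 0.94 and 1.95 in libraries 1 to 4, against -2.37, -2.23, -3.14 and -1.42 for Mir181a-2 to Mir181b-2. The difference between these ratios was 4.13 ± 0.58 log2 units (SD, n = 4), and 4.55 ± 0.52 in reads (SD, n = 4). It equals the first copy ratio above minus the second, so its sign follows from them and adds no further evidence.

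**Figure D2:**
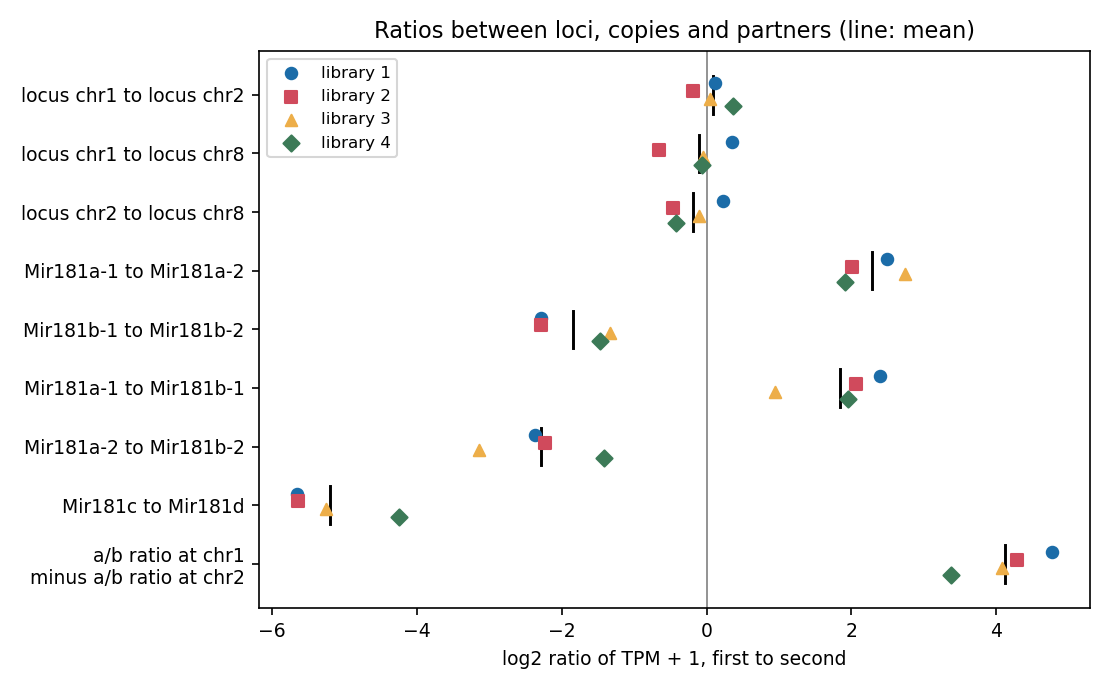
Log2 ratios of TPM plus 1, first to second, for loci, copies and partners, with 1 point per library and a line at the mean. Ratios between whole loci sit near 0 on both sides, while each copy pair and each partner pair lies on 1 side of 0 in all 4 libraries.

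Summed over their genes, the 3 loci had similar listed levels. The chromosome 1 locus summed to 311, 268, 430.2 and 45.3 TPM in libraries 1 to 4, a mean of 264 ± 161 TPM (SD, n = 4). The chromosome 2 locus summed to 287, 307, 415 and 34.9 TPM, a mean of 261 ± 161 TPM (SD, n = 4). The chromosome 8 locus summed to 244, 424, 445 and 47.2 TPM, a mean of 290.01 ± 185 TPM (SD, n = 4). As shares of the family the loci took 33.2% ± 4.45, 31.1% ± 2.82 and 35.7% ± 5.56 (SD, n = 4), and by TPM the locus in front was chromosome 1 in library 1 and chromosome 8 in the others. In reads it was chromosome 8 in library 2 and chromosome 1 in the others, by 6978 to 6977 reads over chromosome 2 in library 3.

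Chromosome 1 to chromosome 2 gave 0.09 ± 0.23 log2 units, above 0 in 3 of 4 libraries and between -0.19 and 0.37 (SD, n = 4; exact permutation p = 0.625, adjusted 0.685). Chromosome 1 to chromosome 8 gave -0.10 ± 0.41, between -0.66 and 0.35 (SD, n = 4; exact permutation p = 0.625, adjusted 0.685). Chromosome 2 to chromosome 8 gave -0.19 ± 0.32, between -0.46 and 0.23 (SD, n = 4; exact permutation p = 0.375, adjusted 0.479). A p that misses the threshold does not show that the loci are equal, and the ranges span both directions. Both ratios to chromosome 8 turned positive in reads, at 0.13 and 0.07. The summed miR-181a copies, at 308, 271, 325 and 45.6 TPM, likewise showed no steady difference from the summed miR-181b copies, at 290, 305, 521 and 34.5 TPM. Their ratio was -0.09 ± 0.45 log2 units, above 0 in 2 of 4 libraries (SD, n = 4; exact permutation p = 0.75, adjusted 0.784), and it was 0.10 without library 3.

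**Figure D3:**
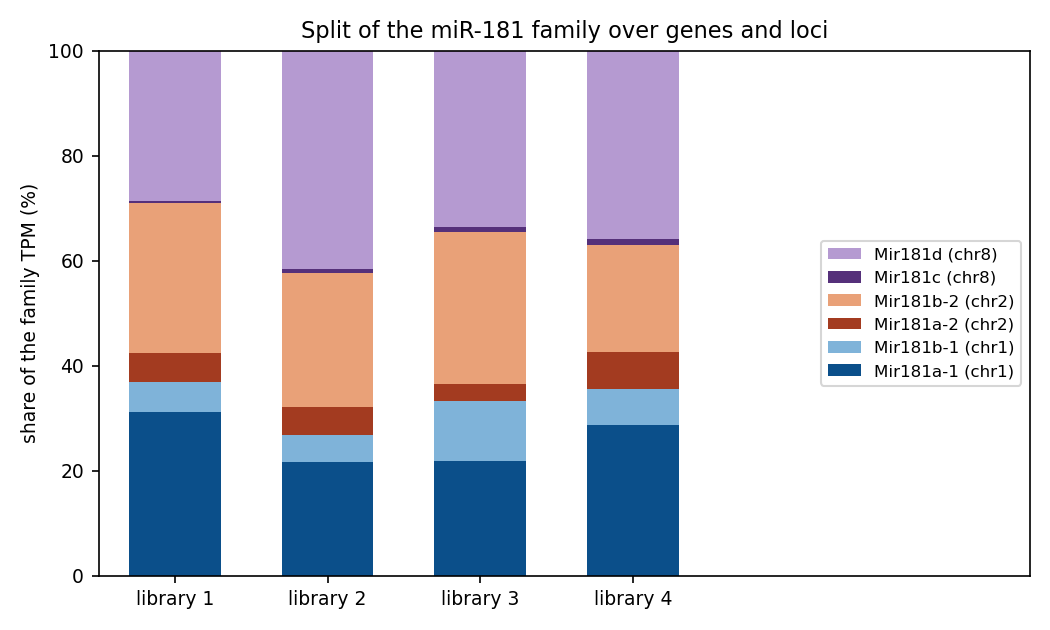
Share of the family TPM (%) held by each gene in libraries 1 to 4, stacked by locus with chromosome 1 at the bottom and chromosome 8 on top. In each bar 3 genes, Mir181a-1, Mir181b-2 and Mir181d, hold most of the family, and Mir181b-1 is widest in library 3.

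Library 3 had the lowest log2 ratio of the a gene to the b gene at chromosomes 1 and 2, at 0.94 and -3.14. Library 4 also stood apart at chromosome 2, on the other side, at -1.42 against -2.37 and -2.23 in libraries 1 and 2. In library 3 Mir181b-1 held 11.4% of the family, against 5.79%, 5.12% and 6.83% in libraries 1, 2 and 4. Mir181a-2 held 3.22% in library 3, against 5.44%, 5.34% and 7.09% in libraries 1, 2 and 4. The neural and blood marker lists were also at their highest in library 3, at 4.99% and 0.0341% of the miRNA total, and also in TPM, at 3082 and 21.1. The blood share was close to that in library 4, at 0.0275%. Most of that neural sum was 1 gene, Mir9-3, at 2861 TPM in library 3. The part of neural or blood cells in the level of Mir181b-1 was not tested. The epithelial list and endothelial Mir126a were highest in library 3 in TPM but in library 4 as shares of the miRNA total, at 0.265% and 1.53%, against 0.255% and 0.856% in library 3. The mesenchyme list held 4.46%, 3.62%, 2.34% and 2.02% of the miRNA total in libraries 1 to 4, lower in library 3 than in libraries 1 and 2.

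The family was set beside 3 other groups of genes spread over several clusters, called families here. Their seeds were not compared, and the miR-23/27/24 group joins genes of different miRNA names. The family sum to the miR-30 family, at 782, 1495, 1842 and 286 TPM in libraries 1 to 4, gave -0.54 ± 0.52 log2 units, below 0 in libraries 2, 3 and 4 and at 0.11 in library 1 (SD, n = 4; exact permutation p = 0.25, adjusted 0.338). Without library 1 the ratio was -0.75. The miR-181 sum was above the miR-23/27/24 family by 1.51 ± 0.18 in 4 of 4 libraries (SD, n = 4; exact permutation p = 0.125, adjusted 0.205). Mir27b, Mir23b, Mir23a and Mir27a averaged 171, 81.0, 16.9 and 15.9 TPM. These make up the whole mean of that family, 285 TPM, so Mir24-1 and Mir24-2 added nothing to it. The reason was not tested. In listed values the miR-181 sum was also above the miR-15/miR-16/miR-195 family, known for restraining the cell cycle. This ratio was 3.90 ± 0.82 log2 units, above 0 in 4 of 4 libraries, at the same exact permutation p (SD, n = 4). Mir16-1 and Mir16-2, copies of 1 name in that family, averaged 26.0 TPM together. How reads that match both were handled is not stated, and its part in this gap was not tested. The ratio to miR-23/27/24 was the steadiest of the 3, between 1.30 and 1.72.

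**Figure D4:**
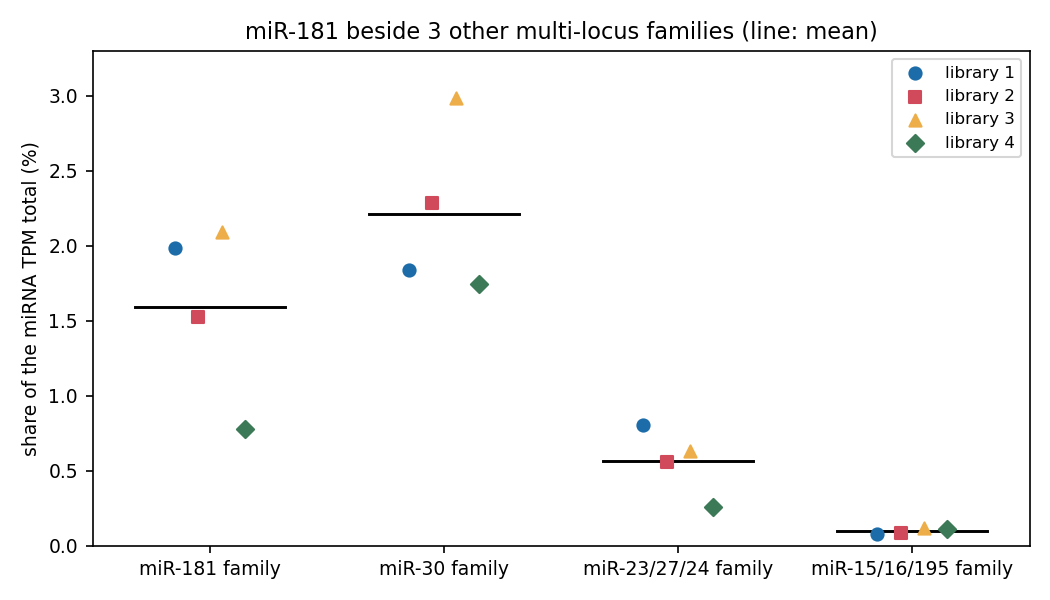
Share of the miRNA TPM total (%) for the miR-181 family and 3 other multi-locus families, with 1 point per library and a line at the mean. The miR-181 points lie between 0.777% and 2.09%, overlapping miR-30, and within each library above miR-23/27/24 and miR-15/miR-16/miR-195. Mir24-1 and Mir24-2 add nothing to the miR-23/27/24 points.

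The pattern of the family sum over the 4 libraries was also set against 165 other miRNA genes with a mean of at least 10 TPM. Likeness was the root mean square difference of log2 of TPM plus 1, each centred on its own mean, so that 0 is an identical pattern. The median over the 165 genes was 0.81 log2 units. The closest genes were Mir362 at 0.12, Mir100 at 0.15, Mir107 at 0.23, Mir27b at 0.25 and Mir23b at 0.26 log2 units. Mir100 had 722, 824, 1357 and 104 TPM in libraries 1 to 4, high in library 3 and low in library 4 like the family. The miRNA TPM total was also lowest in library 4, at 16399 against 42494 to 65478 in the others. The list was unstable, with 1 of these genes still among the 5 closest without library 4, 2 without library 3, and 3 without library 1 or 2. With TPM rescaled to the miRNA total, 2 remained. Within the family the most alike patterns were Mir181b-2 and Mir181d at 0.33, and the least alike were Mir181b-2 and Mir181c at 0.81 log2 units.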

How the data were processed

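Per the labels' protocols, total RNA of sorted cells was made into small RNA libraries and sequenced with single 75 bp reads. The authors deposited TPM, 1 column per library. The submitters' processing notes name the build mm10 (GRCm38) and limma, with neither aligner, counter nor annotation given in the sources used here. Rows were joined by gene ID to RefSeq genes of GRCm38.p6 (2541 of 2976 matched), which also gave the sequences; host annotation came from GENCODE vM21. Of the listed Mir497a, the RefSeq symbol Mir497 was used.

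Multiplied by gene length and divided by the smallest such product of the library, 100% of nonzero miRNA values came out whole within 0.01, and these whole numbers were taken as reads. No count model was fitted. Log2 values used a pseudocount of 1 TPM, which understates differences of low genes. Pairs were compared by exact sign-flip permutation with Benjamini-Hochberg adjustment over 23 tests. The functions were tested on simulated data. The rule for named genes took the 6 members, overlapping rows and other genes with the same seed (none of either), and the 5 genes nearest in pattern. Marker genes and members of the comparison families are named from the fixed lists, and Mir30c and Mir128 were chosen after their values were seen. Members, lists and tests were chosen with earlier results of these data known. Alternatives covered pseudocount, rescaling, length, filters and each library left out. Figures used matplotlib 3.10.9 and Wilson intervals scipy 1.17.1, under Python 3.11.15 with numpy 2.4.6 and pandas 2.3.3.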

Additional observations from a re-analysis of the deposited data

Results flagged for a closer look

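In the ratio of Mir181b-1 to Mir181a-2, library 3 stood far from the other libraries, at 1.80 log2 units against values between -0.06 and 0.09. Dixon's test for 4 values set this library apart at its 95% level, which chance alone does in about 1 in 20 groups, and 1 of the 48 sets of values examined met it. Mir181b-1 was listed with 2258 reads and Mir181a-2 with 605 reads in that library.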

How the results depend on the processing

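Of the 23 ratios, 17 kept their sign under each alternative tried and with each library left out, among them both copy ratios, the 3 partner ratios and the difference of the a to b balance, which follows from the copy ratios and ranged from 3.59 to 4.55. With a pseudocount of 10 TPM the ratios to Mir181c shrank most, Mir181a-1 to 3.47, Mir181b-2 to 3.50, Mir181b-1 to 1.89 and Mir181a-2 to 1.49. The 6 others had means between -0.19 and 0.44. In reads not divided by length, with 1 read added, chromosome 1 to chromosome 8 turned to 0.13 and chromosome 2 to chromosome 8 to 0.069. Only the division by length and the unit added differ from the main setting there, and their parts were not separated. With each library left out in turn, chromosome 1 to chromosome 2 ranged from -0.0089 to 0.18, chromosome 1 to chromosome 8 from -0.25 to 0.080, the summed miR-181a to miR-181b copies from -0.25 to 0.10, Mir181a-1 to Mir181b-2 from -0.17 to 0.13, and Mir181b-1 to Mir181a-2 from -0.0074 to 0.61. No test could pass 0.05 with 4 libraries, or with 3, where the smallest p is 0.25. At 10 TPM in all libraries 3 genes of the family remained, and at 0.1 TPM all 6. Of the 5 genes nearest in pattern, 1 to 3 remained under each alternative. No paired analysis was possible because there is 1 group and so no replicate numbers shared between groups, and all ratios are already within a library. Depth limits Mir181c most, with 14 reads in library 4.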

Other observations

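Grouped by the sequence of the 5p arm, the b-like genes (Mir181b-1, Mir181b-2 and Mir181d) summed to 531, 721, 955 and 80.3 TPM in libraries 1 to 4, and the a-like genes (Mir181a-1, Mir181a-2 and Mir181c) to 312, 278, 335 and 47.1 TPM. The b-like sum was 2.21 ± 0.598 times the a-like sum (SD, n = 4), between 1.70 and 2.85, and 2.06 ± 0.553 times in reads. This grouping was chosen after the values were seen and was not tested.

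The table held 20 miRNA names with 2 copies whose means summed to 10 TPM or more. In 11 of them a single copy took over 90% of that sum, and in 3 the other copy was listed at 0. For miR-181a the higher copy held 84.2% of the summed mean and for miR-181b 77.8%, so both belonged to the 9 names whose listed values were less one-sided, among them Mir30c at 64.4% and Mir128 at 84.2%.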
